A study of Solanum lycopersicum with 6 samples.

Results

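Wild-type tomato fruit was described here from its messenger RNA alone. The members are the 3 wild-type libraries of a series of 6 (the 3 from SlLBD40-KO fruit were not compared) and each was described across 40229 gene models. Among these models 6154 have identifiers of the noncoding kind. The wild type is Micro-Tom, a dwarf tomato (Solanum lycopersicum) widely used in fruit research, and the labelled tissue is fruit at 25 days after anthesis, the opening of the flower (the sample labels abbreviate the time as DDA, the study's design as DAA). Total RNA was taken with TRIzol from biological triplicates. The labels do not say whether a replicate was 1 plant or a pool, which part of the fruit was taken or whether seeds were removed before extraction, while the title of the series mentions more than 1 stage of fruit.

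A tomato fruit grows by cell division and then by cell expansion, is green and photosynthetic while it grows, and encloses seeds that fill with storage protein and oil. Ripening follows under the control of transcription factors such as RIN and NOR and of the hormone ethylene, and brings softening of the cell wall, loss of chlorophyll and synthesis of carotenoids. Values are TPM, a share of the transcript pool (per 1000000) corrected for transcript length, so levels can be compared between genes. Where 3 values of a gene are given, they stand in the order wild type 1, wild type 2 and wild type 3, which are the numbers of the table's columns and not those of the sample titles.

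The libraries were not equally alike, and wild type 1 stood apart. Across the 14412 genes with a mean of at least 5 TPM, Pearson's r of log2(TPM + 1) was 0.802 between wild type 1 and wild type 2, 0.794 between wild type 1 and wild type 3, and 0.881 between wild type 2 and wild type 3. These are correlations across genes, which are not independent replicates. Wild type 3 differed in another way, since the median gene lay 0.23 above the mean of the other libraries on the log2 scale, against differences of -0.16 in wild type 1 and -0.11 in wild type 2. Accordingly 50% of genes were highest in wild type 3, 27.4% in wild type 2 and 22.6% in wild type 1, so a gene high in wild type 3 is to be read against this shift. Median-ratio scaling removes most of it, and values called relative to all genes are free of it. All other values and counts are as deposited unless scaling is named. With 1 group of 3 libraries there is no contrast to test, so the text gives values and spreads and no p-values.

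Of all gene models, 18397, 18016 and 18693 reached 1 TPM in wild type 1, 2 and 3, and 13972 were listed at 0 in every wild-type library. A small set of genes held much of the pool. The 10 most abundant genes of each library took 15.3%, 12.5% and 9.07% of its total, and 580, 620 and 895 genes held 50% of it. Wild type 3 therefore had the flattest distribution, and wild type 1 was the library most concentrated in its leading genes.

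**Figure D1:**
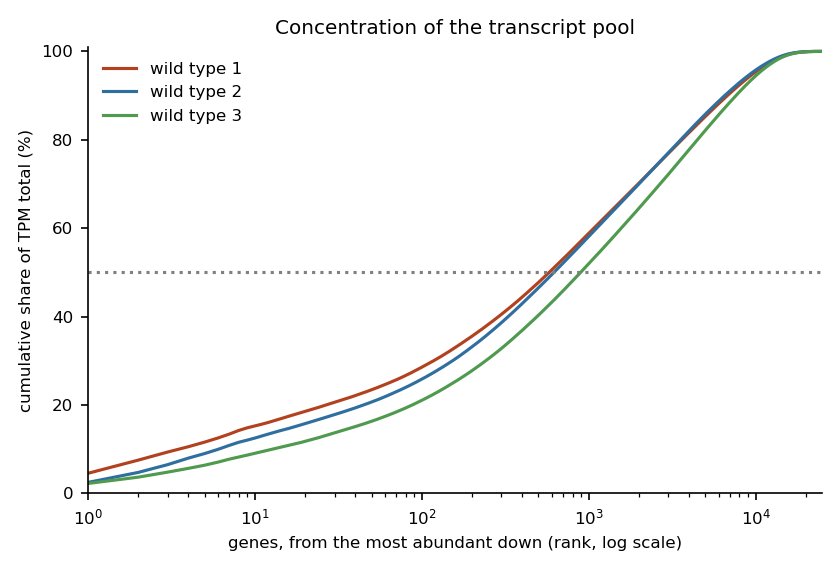
Cumulative share of the TPM total (%) against the rank of genes from the most abundant down (log scale), 1 line per wild-type library. The dotted line marks 50%, which wild type 1 and wild type 2 reach at 580 and 620 genes and wild type 3 at 895.

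The most abundant transcript by mean was Solyc09g075210.3, described as late embryogenesis abundant protein Lea5. Late embryogenesis abundant (LEA) proteins are small hydrophilic proteins best known for protecting cells during water loss, and several are also made outside the seed. Lea5 had 29634, 24664 and 22259 TPM, or 25519 ± 3761 TPM (SD, n = 3), and it ranked 2, 1 and 1 in its libraries. The fruit-specific protein Solyc07g049135.1 came next by mean, with 45222, 9335 and 6592 TPM. That rank rested on wild type 1, where it was the most abundant transcript of all, while it was the 6th and 7th most abundant in the others. The TUB8-like induced stolen tip protein Solyc11g012320.3 had 12077, 22472 and 14160 TPM, and its neighbour in identifier order, Solyc11g012325.1, an unknown protein, was also among the 10 highest with 5965, 7179 and 4835 TPM.

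Abscisic acid stress ripening 1 (ASR1, Solyc04g071610.4), a small protein induced by abscisic acid, drought and ripening, had 18167, 14749 and 11289 TPM. Wild type 1 was the highest and wild type 3 the lowest, a spread of 1.61-fold. A thionin-like protein (Solyc01g104720.3), of a family of small antimicrobial peptides, had 8354, 17453 and 8521 TPM, so it was high in wild type 2 only. The meloidogyne-induced giant cell protein DB141 (Solyc01g099770.3) was more even, with 8657, 8834 and 6856 TPM. Metallothionein type 2 (Solyc09g010800.5.1), a small cysteine-rich protein that binds metal ions, had 4291, 10205 and 7053 TPM. The Sn-1 protein (Solyc04g007770.3) had 10293, 4628 and 4033 TPM and the dehydrin Solyc04g082200.2, of another LEA family, 2364, 4861 and 4427 TPM, so these leading genes did not share 1 order of libraries.

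Further down the 25 highest were genes of protein turnover, ethylene synthesis and the cell wall. Polyubiquitin (Solyc07g064130.2), which encodes the tag that marks proteins for the proteasome, had 3859, 2202 and 3762 TPM. An aminocyclopropane carboxylate (ACC) oxidase, the class of enzyme that makes ethylene from ACC, stood at 1937, 2875 and 2422 TPM (Solyc02g036350.3). S-adenosylmethionine synthetase (Solyc01g101060.4), whose product is the precursor of ACC, had 2889, 1126 and 2450 TPM and was low in wild type 2. Pectin methylesterase 1 (Solyc07g064170.3), which removes methyl groups from cell wall pectin, had 2912, 1565 and 2233 TPM. Of the 25 genes, 5 had no informative description, among them Solyc12g008560.1 with 968, 3837 and 1565 TPM. Together the 25 took 15.9% of the pool.

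The most abundant genes were not the most even. A gene was called variable where its highest and lowest library differed by at least 2-fold on the log2(TPM + 1) scale, and 29.6% of the 14412 genes were (4272 genes). Among the 25 most abundant genes 10 were variable, and among the 100 most abundant 34. Of the 72 genes with a mean of at least 1000 TPM, 41.7% were variable. Below that level the share fell with abundance, from 33.3% between 5 and 20 TPM to 26.4% both between 20 and 100 TPM and between 100 and 1000 TPM. Only 13 of the 25 were among the 25 highest of every library, and 41 genes were among the 25 highest of some library. Without wild type 1, 21 of the 25 remained.

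**Figure D2:**
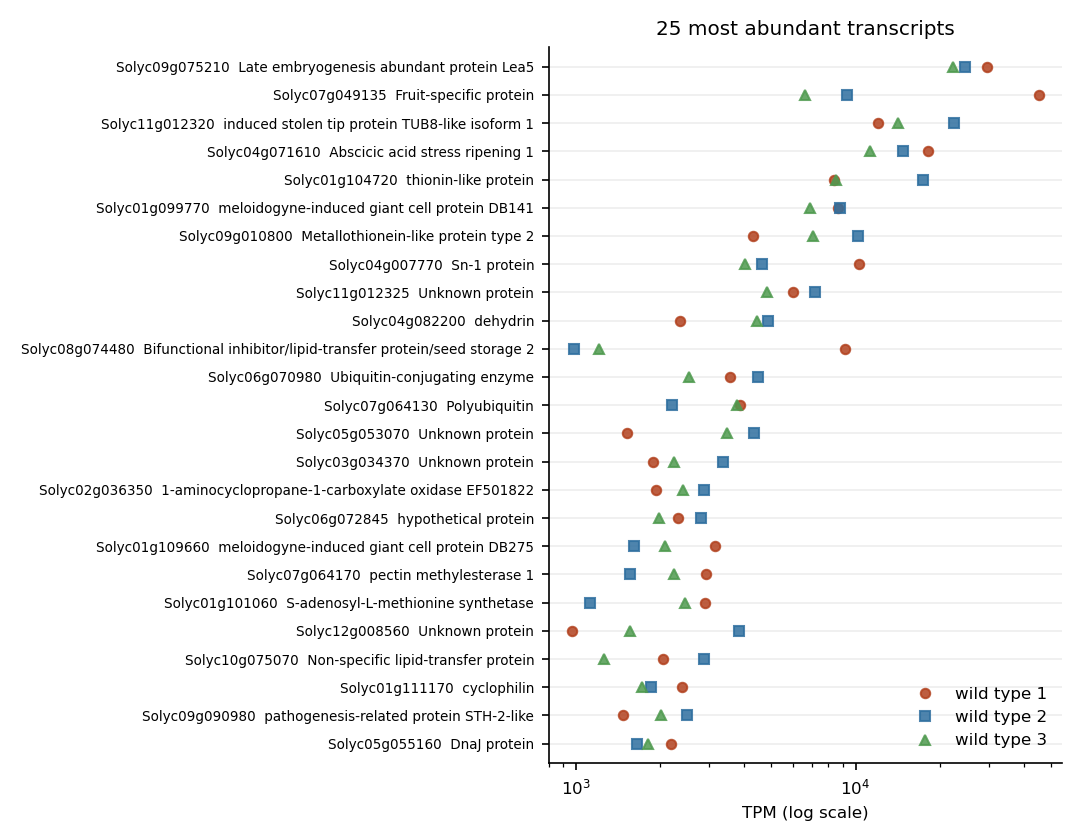
The 25 genes with the highest mean TPM (log scale), named by identifier and deposited description, with 1 point per wild-type library. Lea5 and DB141 have points close together, while the fruit-specific protein reaches 45222 TPM in wild type 1 and at most 9335 TPM in the others.

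Grouped by description, cytosolic ribosomal proteins took the largest share of any of the 29 described classes, 8.51% ± 0.26 of the pool (SD, n = 3), with 8.29%, 8.80% and 8.46%. No gene dominated the class, since the most abundant of its 354 gene models held 1.47% of it. The 40S protein S26 (Solyc06g007470) had 1170.0, 1611 and 953 TPM, and the 60S protein L27 (Solyc06g073300) 1321, 1179 and 1130.1 TPM. Translation factors and tRNA ligases added 2.48% ± 0.14, and ribosomal proteins of plastids and mitochondria 0.39% ± 0.01. Of the 100 most abundant genes, 17 encoded cytosolic ribosomal proteins and 8 translation factors.

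LEA proteins, dehydrins and ASR proteins followed with 5.51%, 4.97% and 4.37%. In contrast to the ribosome, 1 gene carried this class: Lea5 held 51.9% of it, and without Lea5 the share was 2.38%. Early responsive to dehydration 15 (Solyc04g017690), a stress-responsive member, was even at 670.3, 765 and 754 TPM. Of the 40 members with a mean of at least 5 TPM, 21 were variable (52.5%, against 29.6% of all genes), 5 of them at 5 TPM or more in 1 library only. Among the 21 was an abscisic acid and environmental stress-inducible protein (Solyc02g084850) with 116, 392 and 1000.4 TPM. Wild type 3 was highest for that gene and lowest for ASR1.

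Ubiquitin and the proteasome held 4.47% ± 0.37 over 1415 gene models. A ubiquitin-conjugating enzyme (Solyc06g070980), of the kind that passes ubiquitin to target proteins, led the class with 3545, 4492 and 2537 TPM. Kinases, phosphatases and G proteins together held 4.10% ± 0.33 and transcription factors 2.72% ± 0.27, both spread over many genes of moderate level. The most abundant transcription factor model was a mini zinc finger protein (Solyc02g087970) with 2218, 820.1 and 607 TPM, which was high in wild type 1. Polyubiquitin, ubiquitin-conjugating enzymes and many ribosomal proteins have near-identical copies among which reads can be split, so the levels of single copies are uncertain.

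Hormone genes held 2.20% ± 0.23 of the pool. ACC oxidase 1 (ACO1, Solyc07g049530) had 672, 1317 and 2236 TPM, so it was lowest in wild type 1, and an auxin-repressed protein (Solyc02g077880) had 1466, 2795 and 1126 TPM and was high in wild type 2. Defence and pathogenesis-related proteins took 1.94%, 2.94% and 2.41%, and the thionin-like protein held 47.4% of that. Metallothioneins and metal-handling proteins took 0.81%, 1.49% and 1.06%, again led by 1 gene, metallothionein type 2, with 64.7% of the class. In both classes wild type 2 had the highest share, and the leading gene was highest there too. The median defence member was less raised there, by 0.05 relative to all genes on the log2 scale, against 0.20 in wild type 3.

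Chaperones and heat shock proteins (2.06% ± 0.32) included the Bag family chaperone regulator Solyc01g095320, at 720, 810 and 1984 TPM, which was high in wild type 3. Mitochondrial respiration and import was steady at 1.66% ± 0.10, led by the ADP,ATP carrier (Solyc11g062190), which exchanges nucleotides across the inner membrane, with 1004.8, 658 and 881 TPM. Enzymes of glycolysis, sugars, starch and organic acids held 1.51% ± 0.20. Their most abundant member, fructose-bisphosphate aldolase (Solyc02g084440), had 1265, 942 and 1132 TPM. The water channel PIP1.5 (Solyc08g081190) led the transporters (1.5% ± 0.14) with 1221, 1357 and 1494 TPM. Carotenoid and isoprenoid enzymes were a minor class with 0.15% ± 0.01, and phytoene synthase 1, the entry enzyme of fruit carotenoid synthesis, stood at 76.1, 175 and 156 TPM.

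All described classes together held 54.6% ± 0.25 of the pool. A further 35.2% ± 0.98 belonged to genes with a description outside these classes, 7.87% ± 0.96 to genes with no informative description, and 2.33% ± 0.37 to noncoding identifiers. The noncoding models reached high levels and were uneven. Solyc03r017520.1 had 3733, 128 and 716 TPM, whereas Solyc10r047040.1 had 64.5, 2035 and 1606 TPM and its neighbour in identifier order, Solyc10r047030.1, 44.3, 1405 and 1701 TPM. Among the 484 noncoding models with a mean of at least 5 TPM, 44.2% were variable, against 29.6% of all genes. Of these 214 variable models, 36 reached 5 TPM in 1 library only. What these models encode is not given in the sources used here.

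**Figure D3:**
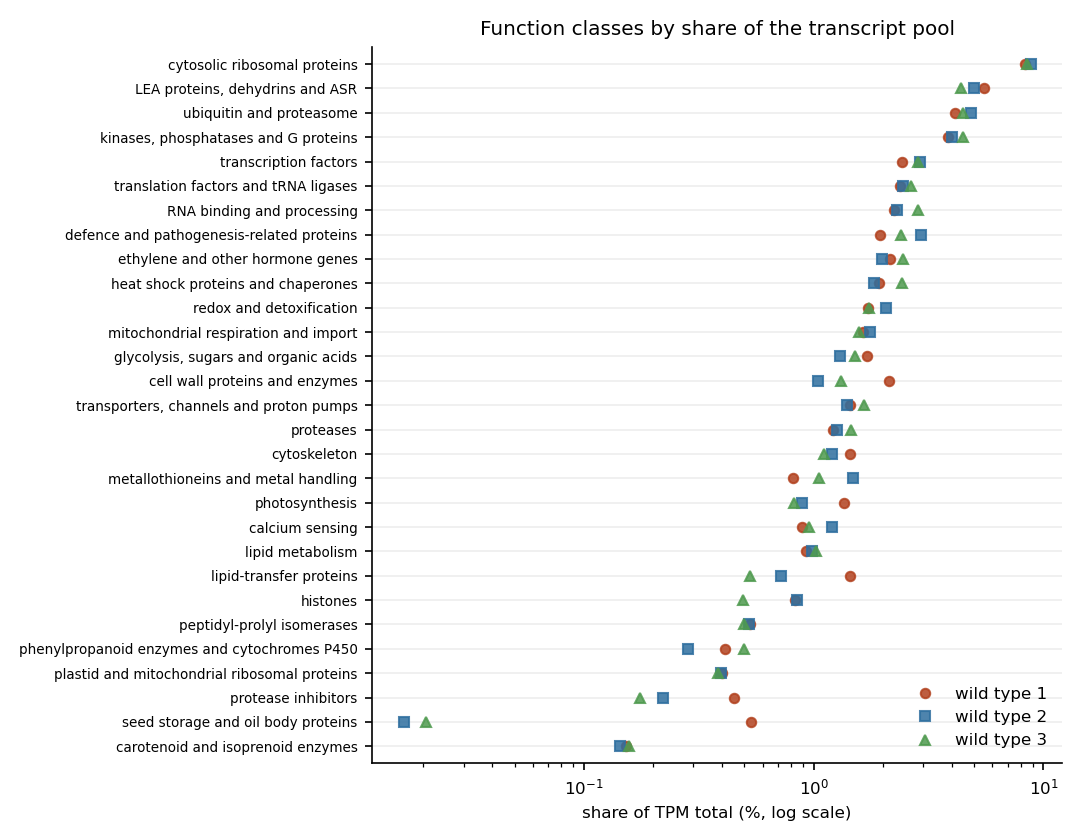
Share of the TPM total (%, log scale) of each of the 29 described function classes, with 1 point per wild-type library. Cytosolic ribosomal proteins lie near 8.51% in all libraries, while seed storage and oil body proteins lie at 0.53% in wild type 1 and near 0.02% in the others.

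As a ratio of shares, the widest gap of any class between libraries, 32.4-fold, was in seed storage and oil body proteins, which fill the protein and oil bodies of maturing seeds. Their share of the pool was 0.532% in wild type 1, against 0.0164% in wild type 2 and 0.0206% in wild type 3. The 2S albumin Solyc08g080490.3, a sulfur-rich storage protein, had 2171, 0.18 and 0 TPM. The 11S globulin Solyc09g072560.4, of the main storage globulin family, had 396, 0.17 and 0.03 TPM. An oleosin (Solyc06g034040.1), one of the proteins that coat oil bodies, had 185, 0 and 0 TPM. Of the 17 members with a mean of at least 5 TPM, 15 were highest in wild type 1, and 13 of these reached 5 TPM in that library alone, so they could enter the count only by differing. The exceptions were a caleosin (Solyc01g005410) with 70.3, 86.2 and 140 TPM and an 11S protein (Solyc11g073200) whose highest library was also wild type 3.

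In a bulk extract, fewer cells of a type and less RNA per cell cannot be told apart, and the part of seed tissue in any difference between these libraries was not tested. Summed over the 50 marker models for seed storage and oil bodies, the level was 5263 TPM in wild type 1, 163 in wild type 2 and 205 in wild type 3, and 26 and 28 of these models were listed at 0 in wild type 2 and wild type 3. Alcohol dehydrogenase 2 (Solyc09g025210.3), which interconverts aldehydes and alcohols, had 774, 0.09 and 0 TPM. A proline-rich protein (Solyc10g054900.2) showed the widest range of all, with 3788, 0.33 and 0 TPM, and the 7k lipid-transfer protein precursor (Solyc02g086310.2) had 901, 0 and 0 TPM. In total 60 genes had at least 20 TPM in wild type 1 and under 1 TPM in both others, against 11 such genes for wild type 2 and 33 for wild type 3.

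Photosynthesis genes were also higher in wild type 1, with a share of 1.35%, against 0.892% in wild type 2 and 0.820% in wild type 3. Of the 96 members with a mean of at least 5 TPM, 68 were highest in wild type 1, where 22.6% of all genes were. After median-ratio scaling 67 were, against 30.8% of all genes. The small subunit of RuBisCO (Solyc03g034220), the carbon-fixing enzyme, had 878, 351 and 447 TPM. Among chlorophyll a-b binding proteins, which hold the pigments of the light-harvesting antenna, Solyc03g005760 had 502, 11.2 and 26.3 TPM and Solyc10g006230 469, 164 and 209 TPM. The 10 kDa polypeptide of photosystem II came from 2 gene models with opposite orders: Solyc07g066310 had 1471, 1018 and 742 TPM, and Solyc12g017250 had 7.51, 398 and 105 TPM. Counting variable genes, 54 of the 96 (56.2%) were, and in 40 of these 54 wild type 1 was the high library. Among all variable genes, 18.6% showed that pattern. Of the 54, 7 reached 5 TPM in wild type 1 alone. The antenna and RuBisCO genes belong to families of similar copies, so reads may be split among them.

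Other classes with wide spreads were made by different libraries. Cell wall proteins and enzymes took 2.13%, 1.04% and 1.32%, and 68.6% of 175 members were variable (120 genes, 20 of them at 5 TPM or more in 1 library only). Of these 120, wild type 1 was high in 46 and wild type 2 was low in 34 (53 and 24 members after median-ratio scaling). Among all variable genes as deposited, these patterns made up 18.6% and 17.1%. The pectin methylesterase pmeu1 (Solyc03g123630.4) had 459.6, 28.9 and 182 TPM, and a cellulose synthase (Solyc04g071650.4), which spins the cellulose of the wall, 151, 8.1 and 82.5 TPM. Both were lowest in wild type 2, as was the auxin-response repressor IAA19 (Solyc03g120380.3) with 58.8, 0.23 and 9.82 TPM.

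Lipid-transfer proteins, secreted carriers tied to the cuticle and to defence, took 1.44%, 0.719% and 0.529%, and 83.3% of 36 were variable (30 genes, of which 14 reached 5 TPM in 1 library only and so had to differ). A single gene, Solyc08g074480.1, held 42.5% of the class and had 9177, 980 and 1206 TPM. Different members were near 0 in different libraries: Solyc10g075150.2 had 0.32, 133 and 420 TPM, and Solyc09g082270.4 had 0.33, 0 and 376 TPM. Copies of this family lie beside each other in identifier order, so their reads may be shared. Protease inhibitors, which block digestive enzymes of herbivores and pathogens, took 0.453%, 0.222% and 0.175%, with proteinase inhibitor PPI3A2 (Solyc09g084440) at 1368, 33.9 and 44.4 TPM.

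Single genes of several classes were high in wild type 3. Chitinase 12 (Solyc07g009500.3), an enzyme that cuts fungal cell wall chitin, had 50.1, 37.8 and 3060.0 TPM. A tyramine hydroxycinnamoyl transferase (Solyc08g068730.1), which makes phenolic amides laid down in wounded walls, had 0.49, 0.57 and 141 TPM, and a dirigent protein (Solyc10g055200.1), of a family that guides phenolic coupling, 3.38, 0 and 226 TPM. Phenylalanine ammonia-lyase (Solyc05g056170), the entry enzyme of phenylpropanoid synthesis, had 6.2, 0.45 and 69.8 TPM. Other chitinases went with both wild type 2 and wild type 3, such as Solyc10g017980.1 with 0.34, 1856 and 1390.1 TPM. For the whole defence class the shift was smaller: relative to all genes, its median member was 0.20 higher in wild type 3 and 0.22 lower in wild type 1 on the log2 scale.

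Histones were low in wild type 3. The class took 0.833%, 0.844% and 0.494%, and 41 of its 50 members at 5 TPM or more were lowest in wild type 3, where 16.7% of all genes were. After median-ratio scaling 45 were lowest in wild type 3, as were 2314 of the 6871 described genes outside the function classes. Relative to all genes, the median member was 1.02 lower there on the log2 scale. A histone H4 model (Solyc11g072860) had 291, 74.8 and 19.2 TPM and a histone H3 model (Solyc01g074000.3) 141, 55.1 and 12.6 TPM. The most abundant copies differed less, though some by more than 2-fold. H3 Solyc11g010230 had 598, 716 and 539 TPM, and H4 Solyc06g075960 had 666, 528 and 250 TPM. Histone messages accumulate mainly in cells that replicate their DNA, and near-identical histone copies may share reads. The summed level of 13 B-type cyclins, which act at cell division, was 219, 212 and 165 TPM. Nearly all of it came from Cyclin-B1-2 (Solyc02g089820) with 205, 200.4 and 150 TPM. Only 2 of the 13 models reached 1 TPM. The second, cyclinB3_1 (Solyc07g066660), had another order with 11.5, 10.9 and 14.4 TPM, so the sum describes 1 gene.

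Genes of several classes were likewise high in wild type 2. Heat stress transcription factor A-2e (Solyc06g053950.3) had 25.2, 247 and 77.0 TPM, a DnaJ chaperone (Solyc09g092260.4), a helper of HSP70, 35.3, 245 and 90.5 TPM, and calmodulin-like protein 45 (Solyc02g088090.1), a calcium sensor, 5.44, 50.2 and 14.4 TPM. The chaperone class as a whole did not share this order, with shares of 1.92%, 1.84% and 2.42%. The homeodomain-leucine zipper factor HOX6 (Solyc08g083130) had the widest range among the transcription factors at 20 TPM or more, with 30.8, 1298 and 473 TPM. Its low library was wild type 1.

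Over all 4272 variable genes, wild type 1 was the library farthest from the middle one in 1800, wild type 3 in 1333 and wild type 2 in 1139. By direction these were 795 high and 1005 low for wild type 1 (5.52% and 6.97% of the 14412 genes), 409 high and 730 low for wild type 2 (2.84% and 5.07%), and 1151 high and 182 low for wild type 3 (7.99% and 1.26%). The directions depended on the scaling: after median-ratio scaling they were 991 high and 780 low for wild type 1, 707 and 512 for wild type 2, and 520 and 438 for wild type 3. At 4-fold or more, 8.76% of genes were variable, and wild type 1 was farthest in 735 of 1263.

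**Figure D4:**
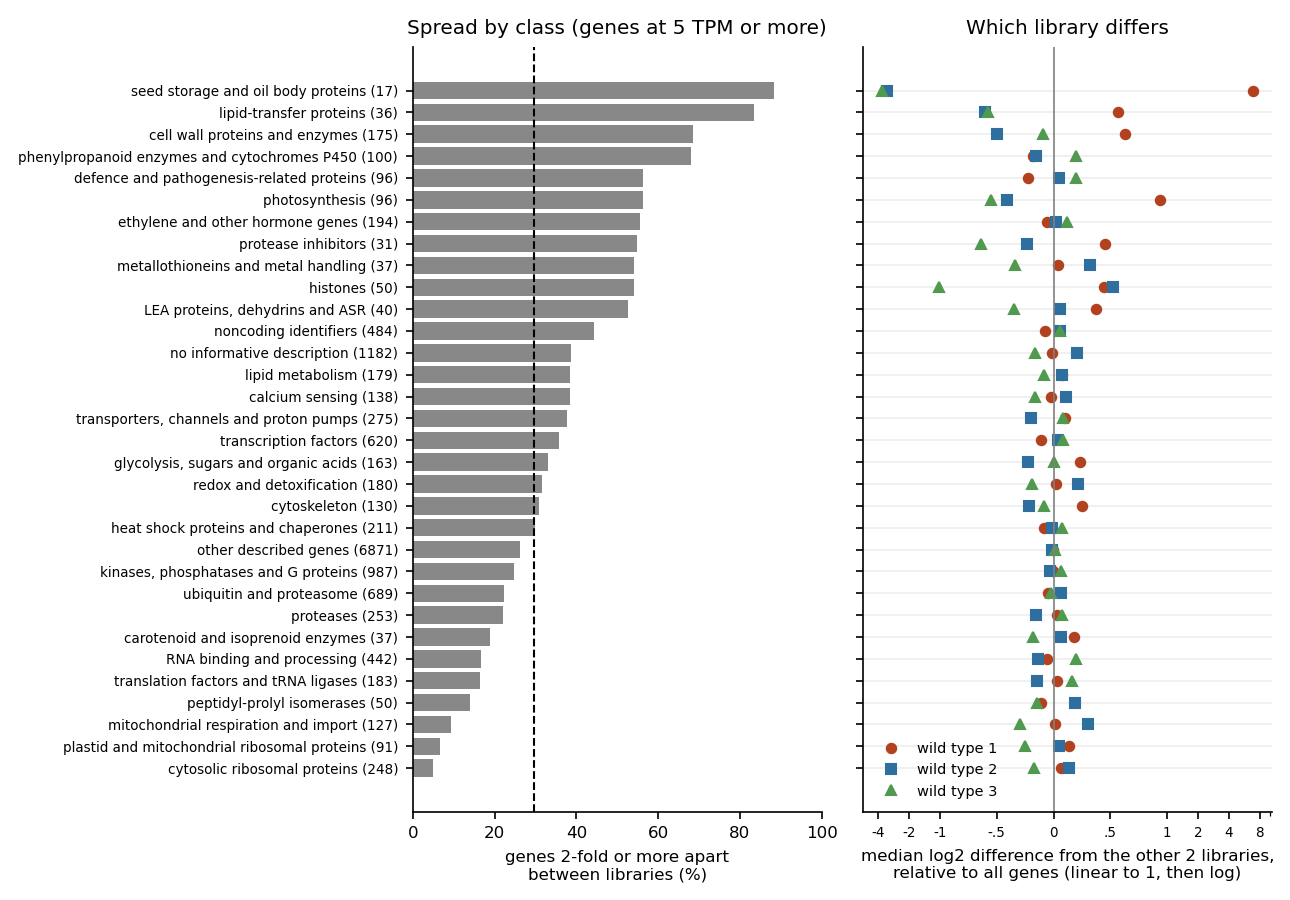
Left, percent of genes with a mean of at least 5 TPM that differ 2-fold or more between the highest and lowest wild-type library, by class, with the number of genes in brackets and a dashed line at 29.6% for all genes. Right, for each class the median log2(TPM + 1) difference of each library from the mean of the others, relative to all genes. Seed storage proteins and photosynthesis lie to the right in wild type 1, and histones to the left in wild type 3.

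The steadiest classes were those of basic cell machinery. Of 248 cytosolic ribosomal proteins 4.84% were variable (6.07% after median-ratio scaling), as were 6.59% of the ribosomal proteins of organelles (12.1%) and 9.45% of mitochondrial respiration and import genes (16.4%). Peptidyl-prolyl isomerases, which help proteins fold, had 14% (8%) and translation factors 16.4% (12.6%). RNA binding and processing came next as deposited with 16.7% (10.2%), so the order of these classes depended on the scaling. The most variable cytosolic ribosomal model at 20 TPM or more, 60S protein L3 (Solyc01g103510), had 48.1, 25.3 and 67.4 TPM.

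The 12 single genes with the smallest ranges at 20 TPM or more spanned many functions. A LAG1-like longevity assurance protein (Solyc05g010280.3), of the ceramide synthase family, had 23.5, 23.5 and 23.4 TPM. Subunit 7 of the 26S proteasome regulatory particle (Solyc01g008370.3) had 114, 115 and 116 TPM, and the nuclear transport GTPase Ran2a (Solyc01g104680.4) 441, 433 and 436 TPM. An ascorbate peroxidase (Solyc06g005150.3), which removes hydrogen peroxide, had 188, 192 and 188 TPM. These are even as shares of the pool only: of the 12, 0 remained among the 12 smallest after median-ratio scaling, and the gene then steadiest was the nuclear pore protein NUP43 (Solyc07g006010.3) with 20.3, 20.2 and 24.6 TPM as deposited. The 12 largest ranges were the same 12 genes under both scalings.

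Among 9 genes commonly used as references in RT-qPCR, 8 had a mean of at least 5 TPM and only beta-tubulin (Solyc04g081490) was variable, with 240.4, 120 and 151 TPM, a range of 1.0 that became 0.99 after median-ratio scaling. As deposited, the narrowest range was that of TIP41-like (Solyc10g049850) with 76.3, 91.3 and 80.5 TPM, 0.26 on the log2 scale. After scaling its range was 0.47 and ribosomal protein L2 had the narrowest, 0.20. Ribosomal protein L2 (Solyc10g006580) had 371, 321 and 418 TPM and actin (Solyc03g078400) 999, 700.3 and 779 TPM. Elongation factor 1-alpha (Solyc06g005060) had 956, 573 and 1045 TPM, and glyceraldehyde 3-phosphate dehydrogenase (Solyc05g014470) 1083, 573 and 743 TPM. Of the 8 genes, 7 were lowest in wild type 2, where 41.2% of all genes were. After median-ratio scaling 6 were, as were 2328 of the 6871 described genes outside the function classes. The model listed as ubiquitin UBI3 (Solyc01g056940) was at 1.52, 3.31 and 0.86 TPM, and since reads may be split among ubiquitin copies its level is uncertain.

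Ripening genes were used to check the labelled stage, and they were unequal too. Of the 17 listed genes, 15 had a mean of at least 5 TPM, and 10 of these were lowest in wild type 1 under both scalings. As deposited, 42.1% of all genes were lowest there. After median-ratio scaling, 2229 of the 6871 described genes outside the function classes were. RIN (Solyc05g012020), a MADS-box factor in the control of ripening, had 1.53, 19.7 and 8.14 TPM, and NOR (Solyc10g006880), a NAC factor, 3.29, 28.9 and 29.0 TPM. FUL1 (Solyc06g069430), a MADS-box partner of RIN, had 231, 872 and 505 TPM, whereas its relative FUL2 (Solyc03g114830) was even with 278, 296 and 255 TPM. The fruit MADS-box genes TAGL1 (Solyc07g055920) and TM29 (Solyc02g089200) were present throughout, with 172, 241 and 220.1 TPM and with 491, 538 and 512 TPM.

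Enzymes of ripening followed the same order of libraries in part. Polygalacturonase 2a (Solyc10g080210.2), the main pectin-degrading enzyme of ripe tomato, had 0.04, 50.4 and 48.7 TPM, and expansin 1 (Solyc06g051800), which loosens walls, 2.0, 24.0 and 43.0 TPM. E8 (Solyc09g089580), an ethylene-regulated dioxygenase, had 512, 1389.8 and 904 TPM, and E4 (Solyc03g111720) 313, 455 and 386 TPM. The ethylene receptor NR (Solyc09g075440) had another order, with 79.9, 39.4 and 119 TPM, and so did CNR (Solyc02g077920), named for the Colorless non-ripening mutant, with 93.7, 65.8 and 69.0 TPM. ACS2 (Solyc01g095080) and ACS4 (Solyc05g050010), the ACC synthases of ripening fruit, stayed at or below 1.18 TPM in every library. Pectate lyase (Solyc03g111690) had 19.3, 10.7 and 26.7 TPM, and its range of 1.25 fell to 0.97 after median-ratio scaling.

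Genes of fruit colour and sugar were also unequal. Green flesh (GF, Solyc08g080090), the STAY-GREEN protein that acts in chlorophyll breakdown, had 18.9, 253 and 126 TPM and was low in wild type 1. The fruit sucrose synthase (SUS, Solyc12g009300), which cleaves imported sucrose in young fruit, ran the other way with 114, 10.4 and 36.7 TPM. The vacuolar invertase TIV1 (Solyc03g083910), which hydrolyses sucrose, had 30.6, 107 and 90.8 TPM. GLK2 (Solyc10g008160), the factor behind the green shoulder of the fruit, was at 0.43, 2.14 and 3.63 TPM, and the invertase LIN5 (Solyc09g010080) was at 0.11 TPM or listed at 0. The libraries thus shared the labelled tissue and time but not 1 level of ripening, seed or green plastid transcripts, and whether the fruits differed in stage was not tested.

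**Figure D5:**
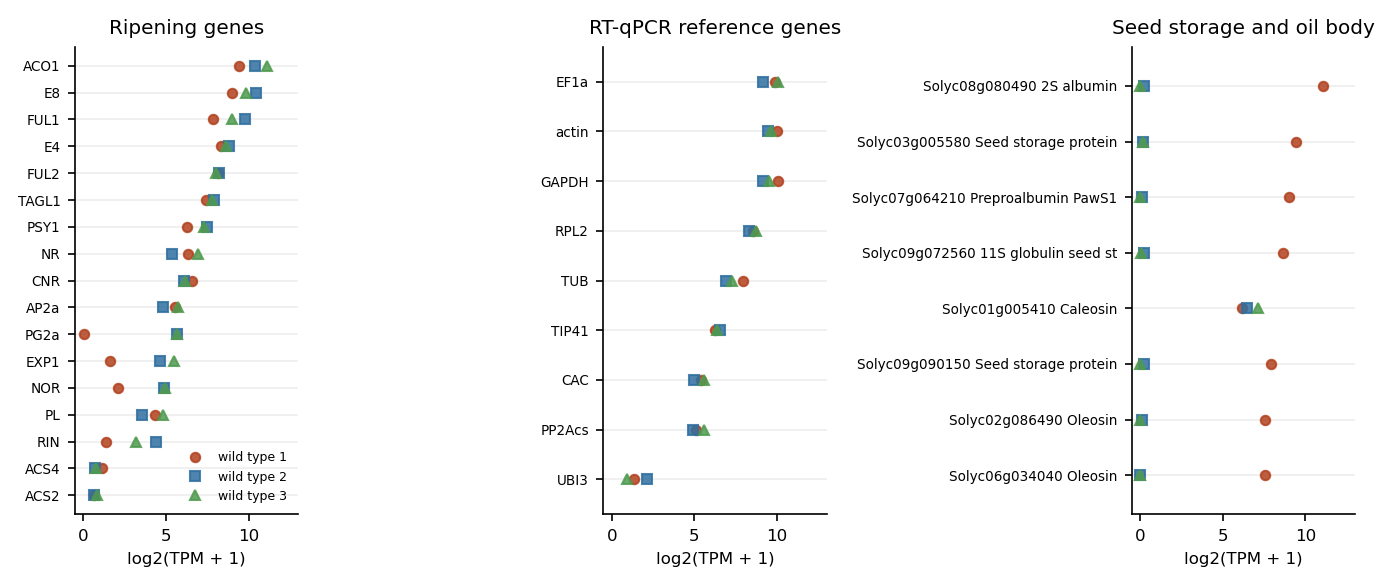
Levels as log2(TPM + 1) of listed ripening genes, RT-qPCR reference genes and the 8 most abundant seed storage and oil body genes, with 1 point per wild-type library. RIN, NOR, PG2a and EXP1 are lowest in wild type 1, where 7 of the 8 seed genes are highest, and the reference genes lie closer together. Those 7 seed genes were under 1 TPM in the other libraries. They ranked among the 8 only through wild type 1, so their order was fixed by the choice.

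Leaving out wild type 1 changed some of these descriptions and not others. The share of seed storage and oil body proteins became 0.0185%, against 0.190% over all libraries, while cytosolic ribosomal proteins became 8.63%, LEA proteins, dehydrins and ASR 4.67%, and photosynthesis 0.856%. The 10 most abundant genes then held 10.8% of the pool on average, against 12.3% with all libraries. Between wild type 2 and wild type 3 alone, 2211 of the 14412 genes (15.3%) were 2-fold apart. The pairs with wild type 1 were not far from this, at 17.6% with wild type 2 and 17.1% with wild type 3.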

How the data were processed

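RNA-seq of fruit was deposited by the authors as 1 table of gene-level values. Its header gives no unit. Each wild-type column adds up to 992555 to 994646, just under 1000000, so the values are taken to be TPM computed by the authors. Per the submitters' processing notes, TopHat2, HISAT2, StringTie and Cufflinks were used, without roles or versions. The build of the genome and its annotation: not given in the sources used here. Depth cannot be read from TPM and stays unknown, so values carry no counting error. A 0 may be an estimate that failed, as 6, 2 and 2 genes were listed at 0 in wild type 1, 2 and 3 and had at least 20 TPM in both other libraries.

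The 3 wild-type columns were assigned to the group only, and the 3 knockout columns were not used. By their labels, the wild-type samples shared 1 sequencing lane. Each gene went to the first of 29 function classes whose words its deposited description matches. Spread is the range of log2(TPM + 1) over genes with a mean of at least 5 TPM, and 2-fold was called variable. Named genes were the 25 most abundant, up to 4 most abundant and most variable members per class, the 12 most and least variable with a description and a mean of at least 20 TPM, and listed ripening, development and reference genes, of which 3 of 37 were dropped because their description did not match. Symbols of listed genes come from general knowledge of the identifiers. The genes named for a library's pattern (12 per library and direction), noncoding genes and marker genes were chosen after their values were seen. Classes, lists and members were chosen with earlier results of these data known. No test was made, because 1 group has no contrast, and the spread is that between these libraries, which may be technical. Alternatives were leaving out each library, median-ratio scaling, coding genes only, other pseudocounts, filters and thresholds. Python 3.11.15, numpy 2.4.6, pandas 2.3.3, scipy 1.17.1 and matplotlib 3.10.9 were used, and the scripts were tested on simulated data.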

Additional observations from a re-analysis of the deposited data

How the results depend on the processing

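The number of variable genes depended on the filter and the fold chosen. It was 4272 as reported, with wild type 1, 2 and 3 farthest from the middle library in 1800, 1139 and 1333. With a mean of at least 20 TPM it was 2080 (937, 576 and 567), with no filter 7024 (3079, 1795 and 2150), and at 4-fold 1263 (735, 258 and 270). With a mean of at least 1 TPM wild type 1 was farthest in 2726. Leaving out each library in turn, with the filter on the mean of those left, gave between 2216 and 2539 variable genes, since 2 libraries span less than 3. Without its most abundant member, the class of LEA proteins, dehydrins and ASR held 2.38% of the pool. Lipid-transfer proteins were higher in wild type 1 relative to all genes by a median of 0.57 on the log2 scale, but at a mean of at least 20 TPM this reversed to -0.19, and the cause was not tested. Of 90 recomputed summary values, those of variable genes and the LEA class included, 73 stayed within their spread (SD, n = 3) or within 1.5 times. Leaving out 1 of 3 libraries cannot move a mean by more than that SD, so those means and shares had to stay. The 73 are therefore no measure of how firm the shares are. No paired analysis was possible because only 1 group was described, so there was no contrast in which to pair samples. TPM without counts limits what can be said of genes near 0.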

Other observations

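Among coding genes at 5 TPM or more, variable genes followed each other in identifier order more often than the average. Models below that level were passed over, so the genes of a pair need not be adjacent. Of 13827 such genes with a next gene, 8.54% had a next gene that was 4-fold variable. Of the 1181 that were 4-fold variable themselves 15.3% did (181 pairs). In 88 of these pairs (48.6%) both genes had the same outlying library and direction, and in 23 they also had the same description. Over all 4-fold variable genes, the most frequent library and direction was wild type 1 low, with 29.5%. Neighbouring copies may share reads, and their part in this was not tested.

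Fruit surface and vascular markers also differed between the libraries. The summed level of 29 cutin and wax models was 218, 432 and 433 TPM, so it was lowest in wild type 1. Of the 13 models with a mean of at least 5 TPM, 0 were highest there, where 22.6% of all genes were. These are values as deposited. The 57 secondary wall and vascular models summed to 295, 201 and 352 TPM, but members went both ways. Of the 14 with a mean of at least 5 TPM, 6 were highest in wild type 3, where 50% of all genes were. Another 4 were highest in wild type 1 and 4 in wild type 2. The most abundant, the phloem protein 2-like F-box model Solyc05g055870, had 177, 65.4 and 57.4 TPM. Laccase Solyc06g082240 had 1.15, 0 and 38.7 TPM, and laccase Solyc05g052340 0.07, 0.03 and 30.5 TPM. Both laccases reached 5 TPM in wild type 3 alone.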
